A study of Mus musculus with 30 samples.

Results

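Livers of 6 obese and 6 lean mice were compared, chosen by their titles and diet labels alone from the 30 livers of a study of weight loss and renewed high-fat feeding. All 12 came from male wild-type C57BL6/J mice at 35 weeks of age. Obese mice had eaten a high-fat, high-sucrose diet (HFD, D12331, 58% of kcal as fat) for 27 weeks, and lean mice the low-fat control diet (D12329, 10.5% of kcal as fat) for 27 weeks. Diet and body weight differ together between the groups, so that the effect of one cannot be told apart from that of the other. RNA of each liver was amplified and hybridised to 1 Affymetrix Mouse Gene 2.0 ST array, so each value is an average over all cells of the tissue.

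The liver stores surplus fatty acids as triglyceride in lipid droplets, whose surface proteins control how fast the fat is laid down and hydrolysed. It makes fatty acids under the transcription factors SREBP1c (*Srebf1*) and ChREBP (*Mlxipl*), burns them under PPAR-alpha and exports them in very low-density lipoprotein. In mice on HFD, fat collects in hepatocytes (steatosis), and acute phase proteins, macrophages and collagen are commonly followed as readouts of inflammation and fibrosis.

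Of the 41345 probe sets of the array, 23521 have 1 gene symbol each and stand for 22180 genes, 1820 have several symbols and 16004 have none. Each value is a log2 signal from robust multi-array averaging (RMA). These signals lay between 1.24 and 13.6. Array medians lay between 3.293 and 3.383 and the arrays correlated with each other at *r* of 0.9651 to 0.9795. No liver stood apart by these 2 measures, which do not exclude that a liver deviates in single genes. Group averages below are linear RMA signals (2 to the power of the log2 signal) ± SD over 6 livers, the ratio is that of the linear averages of obese over lean livers, and a log2 difference is the mean log2 signal of obese minus that of lean livers. A gene was counted as risen or fallen by the criteria that the study set for liver: a limma *P* under 0.01, a ratio past 1.2-fold up or down, and 1 or both group averages above 8. Each gene was represented by its brightest probe set, except that a gene named for its ratio or at the FDR is given by the probe set that passed. The p-values set the difference between the groups against the variation among these 12 livers, and the number of arrays limits the precision.

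In obese livers 322 of the 22180 genes rose (1.45%) and 200 fell (0.902%), together 2.35% of all genes and 3.55% of the 14695 genes with an average above 8. Most changes were small: the median ratio was 1.38 over the single-symbol probe sets that rose and 0.747 over those that fell. A ratio above 2 was found in 28 changed genes and a ratio below 0.5 in 5. The signals of the groups did not overlap in 194 genes (0.875%), 107 of them higher (0.482%) and 87 lower (0.392%) in obese livers. Counted over the whole array, 833 probe sets passed the criteria (2.01%). With limma *P* adjusted for all of them and the false discovery rate (FDR) held at 10%, 37 probe sets (0.0895%) passed, 22 higher and 15 lower, while 3222 (7.79%) had an unadjusted limma *P* under 0.05. The median log2 difference of all genes was 0.00083. The lists of genes described below were fitted to liver metabolism and to liver cell types and hold 872 genes, of which 785 were measured by a probe set with a single symbol.

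**Figure D1:**
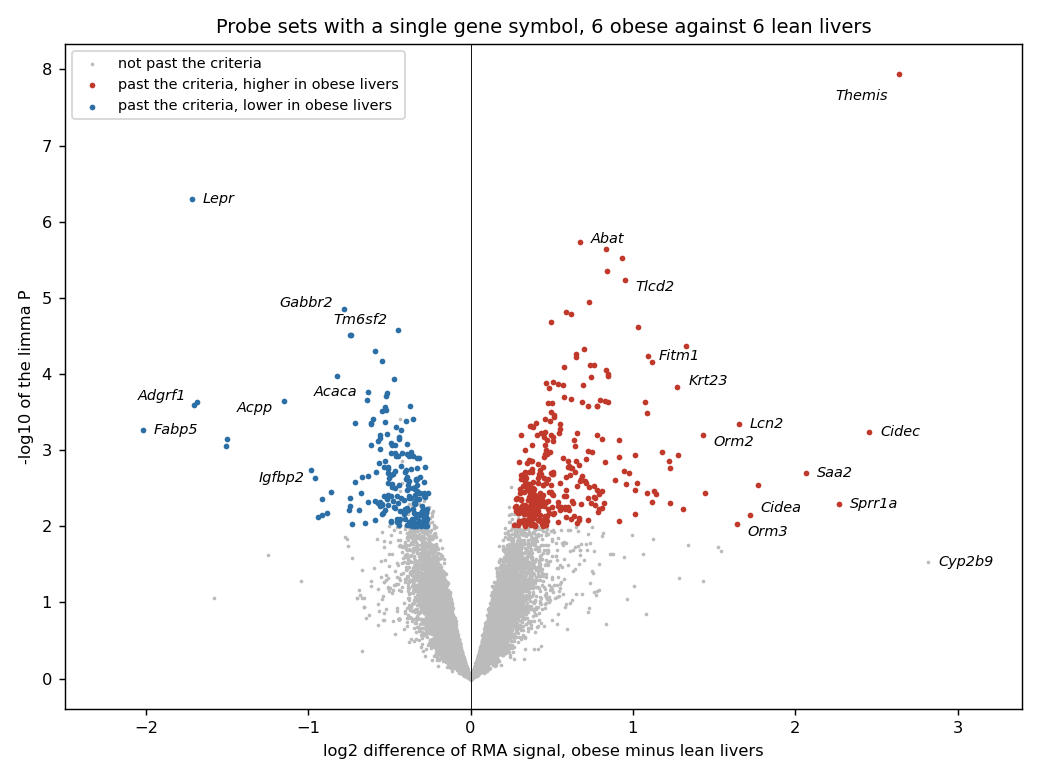
Log2 difference of obese minus lean livers (horizontal axis) against −log10 of the limma *P* (vertical axis) for the 23521 probe sets with a single symbol, 6 livers per group. Red points are past the criteria and higher in obese livers, blue points past them and lower, grey points not past them; *Themis* and *Lepr* have the smallest *P* on either side, and *Cyp2b9* has the widest difference without passing.

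The gene with the smallest *P* was *Themis* (chromosome 10), which encodes a signalling protein of developing T cells. Its signal was 41.5, 69.3, 81.6, 44.8, 49.2 and 83.4 in obese replicates 1 to 6, against 13.5, 9.46, 8.86, 6.84, 11.8 and 8.16 in lean replicates 1 to 6. The lowest obese liver thus lay well above the highest lean liver, and the ratio of averages was 6.31 (log2 difference 2.64, SE 0.212, limma *P*=1.15e-08, adjusted *P*=0.000477, exact permutation *P*=0.00216, the smallest that 6 against 6 livers allow). Other genes of T cells were read beside it. Of 24 measured genes of T and NK cells, 2 rose, *Themis* and the CD3 chain *Cd3g*, 0 fell, and the median log2 difference was 0.070. The invariant chains *Cd3d* and *Cd3e* differed by -0.047 (exact permutation *P*=0.641) and 0.19 (exact permutation *P*=0.327), and the coreceptors *Cd4* and *Cd8a* by -0.28 (exact permutation *P*=0.0606) and 0.051 (exact permutation *P*=0.641), none past the criteria. *Cd3g* itself averaged 8.71 ± 1.43 in obese and 6.86 ± 0.615 in lean livers, near the limit of 8, and did not pass without obese replicate 1, 2, 3, 5 or 6 or lean replicate 1, 2, 3 or 6 (limma *P* at most 0.0224). In bulk RNA, fewer cells of a type and less RNA per cell cannot be told apart, here or in any result below.

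The gene that fell with the smallest *P* was the leptin receptor, *Lepr* (chromosome 4), through which cells sense the fat-derived hormone leptin. Obese livers had signals of 17.7, 14.8, 16.5, 11.3, 17.1 and 19.3, against 31.5, 68.6, 49.6, 52.8, 49.7 and 71.7 in lean livers. The groups were fully separated, with a ratio of 0.298 (log2 difference -1.72, SE 0.189, limma *P*=4.95e-07, adjusted *P*=0.00683, exact permutation *P*=0.00216). Which splice forms of the receptor the probe set reads, the signalling or the short ones, was not determined.

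*Abat*, the transaminase that degrades the transmitter GABA in mitochondria, averaged 661 ± 50.6 in obese and 414 ± 36.9 in lean livers. Its ratio was 1.60 (log2 difference 0.68, SE 0.0837, limma *P*=1.86e-06 and *P*=0.00216 by exact permutation, adjusted *P*=0.0188), and its other probe set also passed. *Gabbr2*, a subunit of the GABA-B receptor, averaged 92.8 ± 16.1 in obese and 158 ± 13.5 in lean livers, with a ratio of 0.588 (log2 difference -0.78, SE 0.116, limma *P*=1.39e-05 and *P*=0.00216 by exact permutation, adjusted *P*=0.0555). Neither gene had overlapping groups.

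In all, 27 genes with a single symbol passed the FDR of 10%, 20 higher and 7 lower in obese livers, and 24 of them carry a gene name rather than a locus number. *Tlcd2*, a regulator of membrane lipid composition, averaged 143 ± 22.9 in obese and 74.2 ± 11.5 in lean livers (adjusted *P*=0.0302, limma). *Them7*, of the acyl-CoA thioesterase family, averaged 259 ± 21.5 vs 157 ± 24.4, and the cytosolic thioesterase *Acot1* 158 ± 21.5 vs 97.5 ± 14.01. The carboxylesterase *Ces1g* had a ratio of 1.70, and *Hsd17b10*, a mitochondrial dehydrogenase of branched-chain and fatty acyl groups, one of 1.49. *Slc47a1*, which extrudes organic cations into bile, averaged 227 ± 14.4 in obese and 161 ± 11.8 in lean livers, and the lysosomal transporter *Slc46a3* averaged 171 ± 11.4 in obese and 110 ± 18.7 in lean livers. The others that rose were *Tmem184c*, *Pmm1* (phosphomannomutase), *Tmem120a*, *Cmbl*, *Fitm1*, *Tpm2* (tropomyosin), *Saa4* and *Gpc1* (a heparan sulphate proteoglycan), with ratios from 1.53 to 2.13. *Gpc1* rests on 1 probe set, since its brighter one differed by 0.20 and did not pass.

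Among the genes that fell at this FDR, *Tm6sf2*, which loads triglyceride onto very low-density lipoprotein, had signals between 135 and 159 in obese livers, against 184 to 208 in lean livers. The drop was modest and uniform, with a ratio of 0.735 (log2 difference -0.45, SE 0.0711, limma *P*=2.67e-05 and *P*=0.00216 by exact permutation, adjusted *P*=0.06). *Ugcg*, which makes glucosylceramide from ceramide, averaged 48.3 ± 6.04 in obese and 70.1 ± 4.97 in lean livers. The kinase *Camk1d* had a ratio of 0.600, the P450 epoxygenase *Cyp2j9* one of 0.591 and the asparaginase *Aspg* one of 0.669, and in none of these 4 genes did the groups overlap. The number of probe sets past the FDR moved by more than 1.5 times whichever liver was left out. It was 68 without obese replicate 1, 59 without lean replicate 1 and between 6 (without lean replicate 2) and 21 (without obese replicate 5) without any other liver, and 6 of the 37 passed in each of the 12 fits that left out 1 liver. The count by the criteria was less sensitive, with 699 to 888 probe sets over the same fits, against 833 with all livers. Its members changed more than the count: 412 of the 833 passed in each of the 12 fits.

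**Figure D2:**
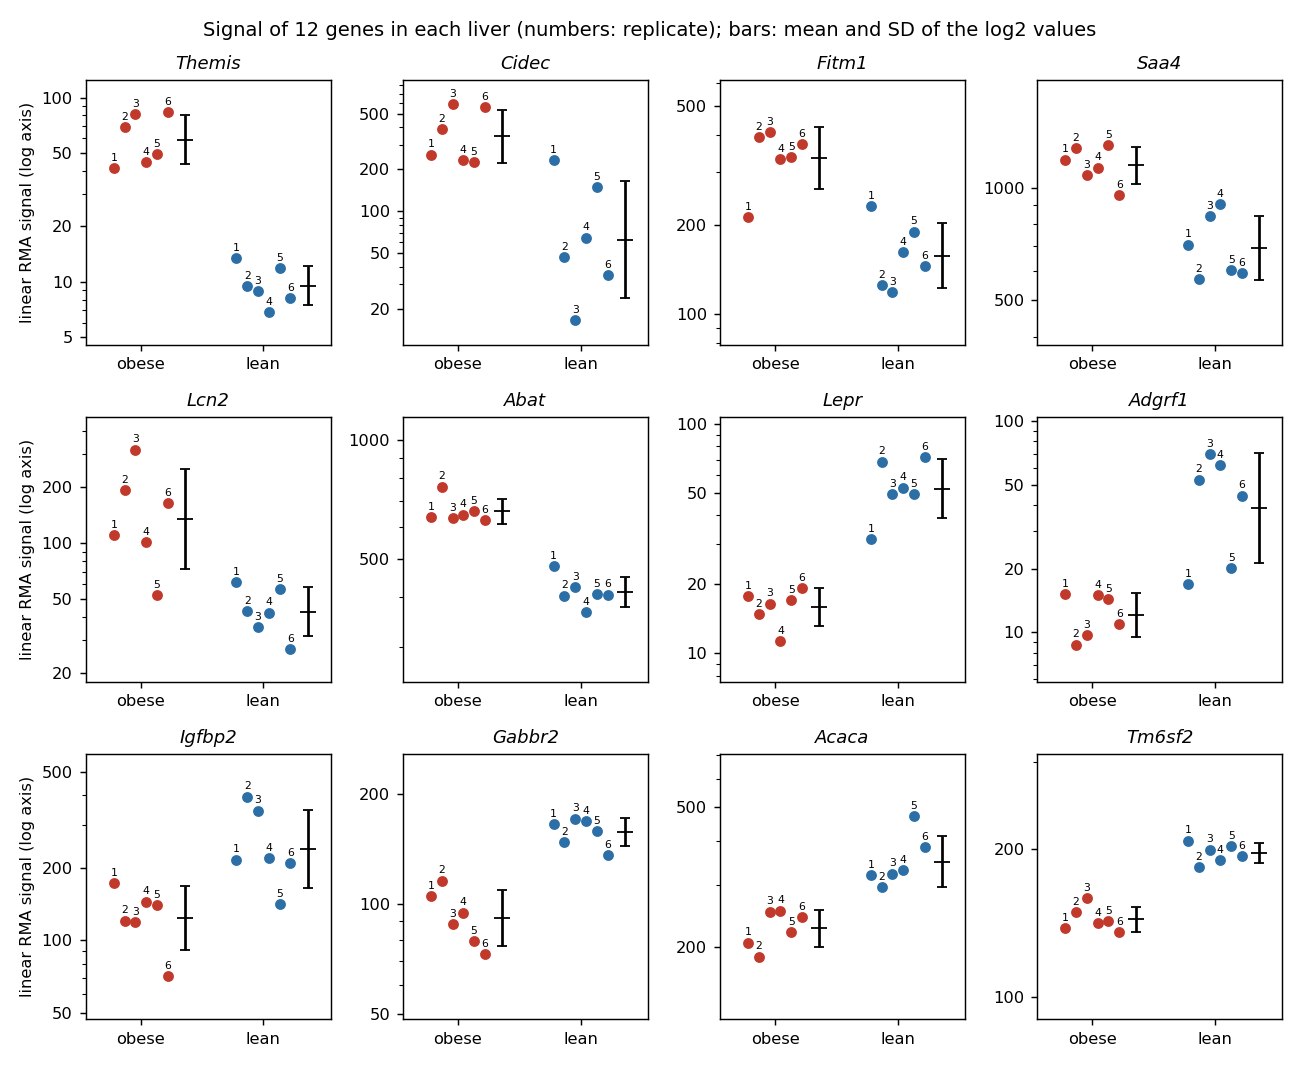
Linear RMA signal (log axis) of 12 genes in each of the 6 obese (red) and 6 lean (blue) livers; the number above a point is the replicate, and black bars give the mean and SD of the log2 signals. *Themis*, *Abat*, *Lepr*, *Gabbr2* and *Tm6sf2* separated the groups fully, while for *Cidec* lean replicate 1 lay inside the obese range.

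The widest rises reached 6.55-fold, and most of them varied strongly from liver to liver. *Sprr1a*, a protein of the cell envelope of stressed epithelia, had signals of 18.1, 150, 233, 48.5, 12.4 and 87.6 in obese livers, against 18.4, 8.67, 6.92, 6.93, 32.3 and 10.8 in lean livers. Obese replicates 2, 3 and 6 were the highest and replicates 1 and 5 lay inside the lean range, so the ratio of 6.55 averages over livers with and without a rise (log2 difference 2.27, SE 0.677, limma *P*=0.00512 and *P*=0.0173 by exact permutation, adjusted *P*=0.377). *Sprr1a* did not pass without obese replicate 2, 3 or 6 or lean replicate 2, 3, 4 or 6 (limma *P* at most 0.0135). *Ubd*, a ubiquitin-like modifier induced by inflammatory cytokines, ranged from 9.75 to 58.8 (median 16.6) in obese livers, against 6.22 to 9.65 (median 8.06) in lean livers. Its groups did not overlap, its ratio was 2.88, and it did not pass without obese replicate 2 or 6 or lean replicate 3 or 6 (limma *P* at most 0.0127). *Krt23*, a keratin of simple epithelia, and *Cdkn1a*, the cell cycle inhibitor p21, passed in every fit that left out 1 liver. *Krt23* averaged 21.8 ± 9.29 in obese and 8.42 ± 1.23 in lean livers (log2 difference 1.27, SE 0.242, limma *P*=0.000148 and *P*=0.00216 by exact permutation), and *Cdkn1a* 48.5 ± 21.0 and 19.1 ± 4.52 (log2 difference 1.22, SE 0.304, limma *P*=0.00139 and *P*=0.00866 by exact permutation). *Slc16a5*, of the monocarboxylate transporter family, had a ratio of 3.28 and *Cib3*, a calcium-binding protein, one of 2.51. *Spink1*, a trypsin inhibitor, had a ratio of 3.05 and did not pass without obese replicate 1, 3 or 6 or lean replicate 1, 3, 4, 5 or 6 (limma *P* at most 0.0155).

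On the other side, *Fabp5*, a fatty acid binding protein of macrophages, skin and fat, fell furthest. Its signal was 75.2, 27.4, 118, 153, 144 and 190 in obese livers, against 500, 177, 408, 309, 606 and 667 in lean livers. Lean replicate 2 alone reached into the obese range, and the ratio was 0.265 (log2 difference -2.02, SE 0.446, limma *P*=0.000544 and *P*=0.00433 by exact permutation, adjusted *P*=0.188). All 4 probe sets of *Fabp5* passed, with log2 differences of -2.02 to -1.50, although processed copies of this gene in the genome can share its probes. *Adgrf1*, an adhesion receptor for a docosahexaenoic acid amide, averaged 12.3 ± 2.88 in obese and 44.2 ± 21.7 in lean livers, with no overlap and a ratio of 0.279 (log2 difference -1.69, SE 0.337, limma *P*=0.000231 and *P*=0.00216 by exact permutation). *Igfbp2*, a carrier of insulin-like growth factors secreted by hepatocytes, ranged from 70.9 to 173 in obese livers, against 141 to 394 in lean livers, a ratio of 0.504 (log2 difference -0.96, SE 0.254, limma *P*=0.00229 and *P*=0.00649 by exact permutation). *Cyp39a1*, an oxysterol hydroxylase of bile acid synthesis, had no overlap and a ratio of 0.558 (exact permutation *P*=0.00216), and *Fads3*, of the fatty acid desaturase family, one of 0.522 (exact permutation *P*=0.00649). Further ratios were 0.461 for the acid phosphatase *Acpp*, 0.499 for the actin regulator *Carmil1*, 0.518 for *Rwdd2a*, 0.519 for *Csad*, an enzyme of taurine synthesis, 0.527 for *Pcid2* and 0.584 for *Lpin2*, a phosphatidate phosphatase. *Carmil1* lost the criteria without 1 of 5 livers (obese replicates 2 and 6, lean replicates 2, 3 and 4, limma *P* at most 0.0116), *Csad* without obese replicate 2, 3 or 4 or lean replicate 2, 3, 4 or 6 (at most 0.0186), and *Rwdd2a* without obese replicate 2, 3, 5 or 6 or lean replicate 1, 3, 4 or 6 (at most 0.0189). *Pcid2* and *Lpin2* each have a brighter probe set that did not pass, with log2 differences of -0.26 and -0.0047, so both changes belong to 1 of 2 probe sets. That of *Lpin2* did not pass without obese replicate 1, 2, 4 or 6 or lean replicate 1, 3, 5 or 6 (limma *P* at most 0.0161).

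Among lipid droplet proteins, members that fuse droplets and store fat rose. Of 19 measured genes, 6 rose and 1 fell, and the median log2 difference was 0.12. *Cidec*, which fuses small droplets into large ones, had signals of 255, 389, 586, 233, 225 and 561 in obese livers, against 233, 47.1, 16.7, 64.9, 150 and 34.9 in lean livers. Obese replicates 4 and 5 lay at or just under lean replicate 1, the other obese livers lay above every lean liver, and the ratio was 4.11 (log2 difference 2.46, SE 0.547, limma *P*=0.000585 and *P*=0.00649 by exact permutation). *Cidea*, its relative in brown fat and steatotic liver, had signals of 8.96, 90.1, 34.1, 28.6, 23.3 and 97.1 in obese livers, against 11.8, 7.80, 7.82, 8.48, 30.5 and 7.55 in lean livers. Obese replicates 2 and 6 were the highest, obese replicates 1, 4 and 5 lay inside the lean range and lean replicates 1 and 5 inside the obese one (ratio 3.82, log2 difference 1.72, SE 0.540, limma *P*=0.00706 and *P*=0.0281 by exact permutation). *Cidea* passed without obese replicate 1 or 5 or lean replicate 5 and in none of the other 9 such fits (limma *P* at most 0.0179). The endoplasmic reticulum proteins that bud off droplets followed. *Fitm1* averaged 343 ± 70.8 in obese and 162 ± 42.5 in lean livers (ratio 2.12, exact permutation *P*=0.00433, adjusted *P*=0.0849), on 1 of its 2 probe sets, and *Fitm2* 93.8 ± 19.7 and 70.0 ± 6.93, although *Fitm2* did not pass without obese replicate 2, 3 or 6 or lean replicate 2, 3, 4 or 5 (limma *P* at most 0.0173). The droplet coat protein *Plin4* averaged 89.4 ± 32.5 in obese and 39.6 ± 14.8 in lean livers (log2 difference 1.18, SE 0.283, limma *P*=0.00106 and *P*=0.00649 by exact permutation), and *G0s2*, an inhibitor of the triglyceride lipase ATGL, 582 ± 153 and 341 ± 97.6 (log2 difference 0.79, SE 0.225, limma *P*=0.00375 and *P*=0.00433 by exact permutation). *Plin2*, the main droplet coat protein of hepatocytes, did not pass: it ranged from 486 to 879 in obese livers, against 371 to 907 in lean livers (log2 difference 0.28, SE 0.205, limma *P*=0.189 and *P*=0.238 by exact permutation). The member that fell was *Pnpla3*, a droplet hydrolase that follows feeding and SREBP1c, with 27.5 ± 7.47 in obese and 51.6 ± 18.2 in lean livers (log2 difference -0.88, SE 0.275, limma *P*=0.00669 and *P*=0.0152 by exact permutation). *Pnpla3* did not pass without obese replicate 2, 3 or 6 or lean replicate 1, 3, 4, 5 or 6 (limma *P* at most 0.0166).

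*Cidea* and *Fabp4* are also adipocyte genes, so the adipocyte list was read beside them. Of its 9 measured members *Cidea* and *Fabp4* rose and 0 fell, with a median log2 difference of 0.064, and their summed signal ranged from 262 to 690 in obese livers, against 162 to 400 in lean livers. The part of fat cells in the rise of *Cidea* and *Fabp4* was not tested. The defining adipocyte hormones were at the floor of the array in both groups: adiponectin (*Adipoq*) had signals of 5.78 to 8.202 in obese livers, against 6.45 to 8.54 in lean livers, and leptin (*Lep*) 5.08 to 9.23 against 5.29 to 7.22. The adipocyte droplet coat *Plin1* differed by 0.096 (exact permutation *P*=0.645).

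Of 23 measured genes of fatty acid uptake and triglyceride synthesis 5 rose and 1 fell, with a median of 0.085. *Cd36*, a membrane translocase of fatty acids, ranged from 601 to 1158 (median 879) in obese livers, against 159 to 756 (median 368) in lean livers. Lean replicates 1 and 5, at 714 and 756, lay inside the obese range and the other 4 lean livers below it (ratio 1.98, log2 difference 1.14, SE 0.326, limma *P*=0.00380 and *P*=0.0108 by exact permutation). *Pparg*, the fat cell regulator that also acts in steatotic hepatocytes, averaged 190 ± 41.3 in obese and 101 ± 42.4 in lean livers (log2 difference 0.98, SE 0.255, limma *P*=0.00200 and *P*=0.00866 by exact permutation). *Mogat1*, an acyltransferase that makes diacylglycerol, averaged 32.2 ± 12.4 and 14.5 ± 4.68 (log2 difference 1.09, SE 0.308, limma *P*=0.00365 and *P*=0.0195 by exact permutation). *Agpat2*, which makes phosphatidic acid, rose by a smaller amount, with signals of 303 to 368 in obese livers, against 213 to 281 in lean livers and no overlap (ratio 1.30, log2 difference 0.38, SE 0.0835, limma *P*=0.000497 and *P*=0.00216 by exact permutation). *Fabp4*, a fatty acid carrier of fat cells, macrophages and endothelium, averaged 309 ± 130 in obese and 147 ± 81.9 in lean livers (ratio 2.10), and did not pass without obese replicate 3 or 6 or lean replicate 1, 2 or 3 (limma *P* at most 0.0125). *Fabp5*, given above, was the member that fell.

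Genes of fatty acid synthesis lay lower. Of 21 measured genes 5 fell and 0 rose, 19 of the 21 log2 differences were below 0 and their median was -0.23. *Acaca*, acetyl-CoA carboxylase, which makes malonyl-CoA, was the clearest: its signals were 206, 188, 252, 254, 221 and 243 in obese livers, against 320, 296, 323, 331, 469.5 and 383 in lean livers. The groups did not overlap, and the ratio was 0.643 (log2 difference -0.63, SE 0.122, limma *P*=0.000174 and *P*=0.00216 by exact permutation). *Pklr*, the pyruvate kinase of liver, averaged 615 ± 92.6 in obese and 853 ± 115 in lean livers (log2 difference -0.48, SE 0.124, limma *P*=0.00203 and *P*=0.00433 by exact permutation), and the elongase *Elovl6* 560 ± 131 and 884 ± 177 (log2 difference -0.67, SE 0.190, limma *P*=0.00360 and *P*=0.0108 by exact permutation). *Acly*, which releases acetyl-CoA from citrate, had a ratio of 0.643 and did not pass without lean replicate 4, 5 or 6 (limma *P* at most 0.0129). *Fasn*, fatty acid synthase, had signals of 982, 395, 978, 848, 557 and 744 in obese livers, against 1150, 949.5, 1143, 1419, 1316 and 987 in lean livers. Obese replicate 2 was lowest in *Fasn*, *Acaca*, *Acly* and *Pnpla3* alike, and *Fasn* did not pass without obese replicate 5 or lean replicate 1, 3, 4 or 5 (limma *P* at most 0.0156). The malic enzyme *Me1* (log2 difference -0.49, exact permutation *P*=0.039) and the regulator *Mlxipl* (-0.31, exact permutation *P*=0.0671) did not pass the criteria. *Elovl2* separated the groups, with 2030 to 2276 in obese livers, against 2385 to 2750 in lean livers, but its ratio of 0.853 was inside the limit of 1.2-fold.

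Among genes of cholesterol synthesis and uptake 13.6% passed, against 3.55% of all genes with an average above 8. Of 22 measured members 2 rose and 1 fell, 16 log2 differences were above 0, and the median was 0.21. *Insig2*, an endoplasmic reticulum protein that holds SREBP back, averaged 323 ± 45.2 in obese and 227 ± 54.8 in lean livers (log2 difference 0.54, SE 0.162, limma *P*=0.00534 and *P*=0.00866 by exact permutation), and did not pass without obese replicate 3 or 6 or lean replicate 4 (limma *P* at most 0.0139). *Srebf2*, the regulator of sterol synthesis, averaged 70.2 ± 9.42 and 51.4 ± 10.2, and did not pass without obese replicate 1, 2, 3, 4 or 5 or lean replicate 4 or 5 (limma *P* at most 0.0205). Enzymes of the pathway lay higher without passing. *Hmgcs1*, the synthase at its entry, ranged from 499 to 1439 in obese livers, against 263 to 804 in lean livers (log2 difference 0.79, SE 0.328, limma *P*=0.0312 and *P*=0.0584 by exact permutation), *Msmo1* differed by 0.61 (exact permutation *P*=0.0368) and *Cyp51* by 0.57 (exact permutation *P*=0.0866). The cholesterol carrier *Stard4* fell to 106 ± 16.8 in obese, against 138 ± 18.6 in lean livers, and passed without obese replicate 4 or 5 or lean replicate 2 and in none of the other such fits (limma *P* at most 0.0230).

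Genes of fat oxidation and other PPAR-alpha targets lay higher as a group, with small steps. Of 29 measured genes 7 rose and 0 fell, 26 log2 differences were above 0 and the median was 0.23, the second highest among the 24 pathway lists. Peroxisomal *Hsd17b4*, the multifunctional enzyme of beta-oxidation, had signals of 1326 to 1537 in obese livers, against 1111 to 1232 in lean livers. The separation was complete although the ratio was 1.24 (log2 difference 0.31, SE 0.0694, limma *P*=0.000627 and *P*=0.00216 by exact permutation). *Aldh3a2*, the fatty aldehyde dehydrogenase, had a ratio of 1.33 (exact permutation *P*=0.00433), *Acadm*, medium-chain acyl-CoA dehydrogenase, one of 1.27 (exact permutation *P*=0.00649) and *Slc25a20*, the mitochondrial carnitine carrier, one of 1.38 (exact permutation *P*=0.00866). *Vnn1*, a pantetheinase and PPAR-alpha target, had the widest difference, with 335 ± 108 in obese and 170 ± 74.8 in lean livers (log2 difference 1.01, SE 0.316, limma *P*=0.00687 and *P*=0.0195 by exact permutation). *Vnn1* did not pass without obese replicate 2, 3, 4, 5 or 6 or lean replicate 2, 3, 4 or 6 (limma *P* at most 0.0179), and peroxisomal *Ehhadh*, with a ratio of 1.34, did not pass without obese replicate 2, 3, 4 or 6 or lean replicate 3, 4 or 5 (at most 0.0150). *Acot1*, described above, was the seventh member, and its near-identical neighbour *Acot2* may share its probes. The omega-hydroxylase *Cyp4a14* (log2 difference 0.81, SE 0.284, limma *P*=0.0134 and *P*=0.0216 by exact permutation) and the kinase *Pdk4* (0.60, SE 0.253, limma *P*=0.0326 and *P*=0.0628 by exact permutation) did not pass. *Cpt2* had fully separated groups, 722 to 835 in obese against 597 to 706 in lean livers, with a ratio of 1.18, short of the limit.

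**Figure D3:**
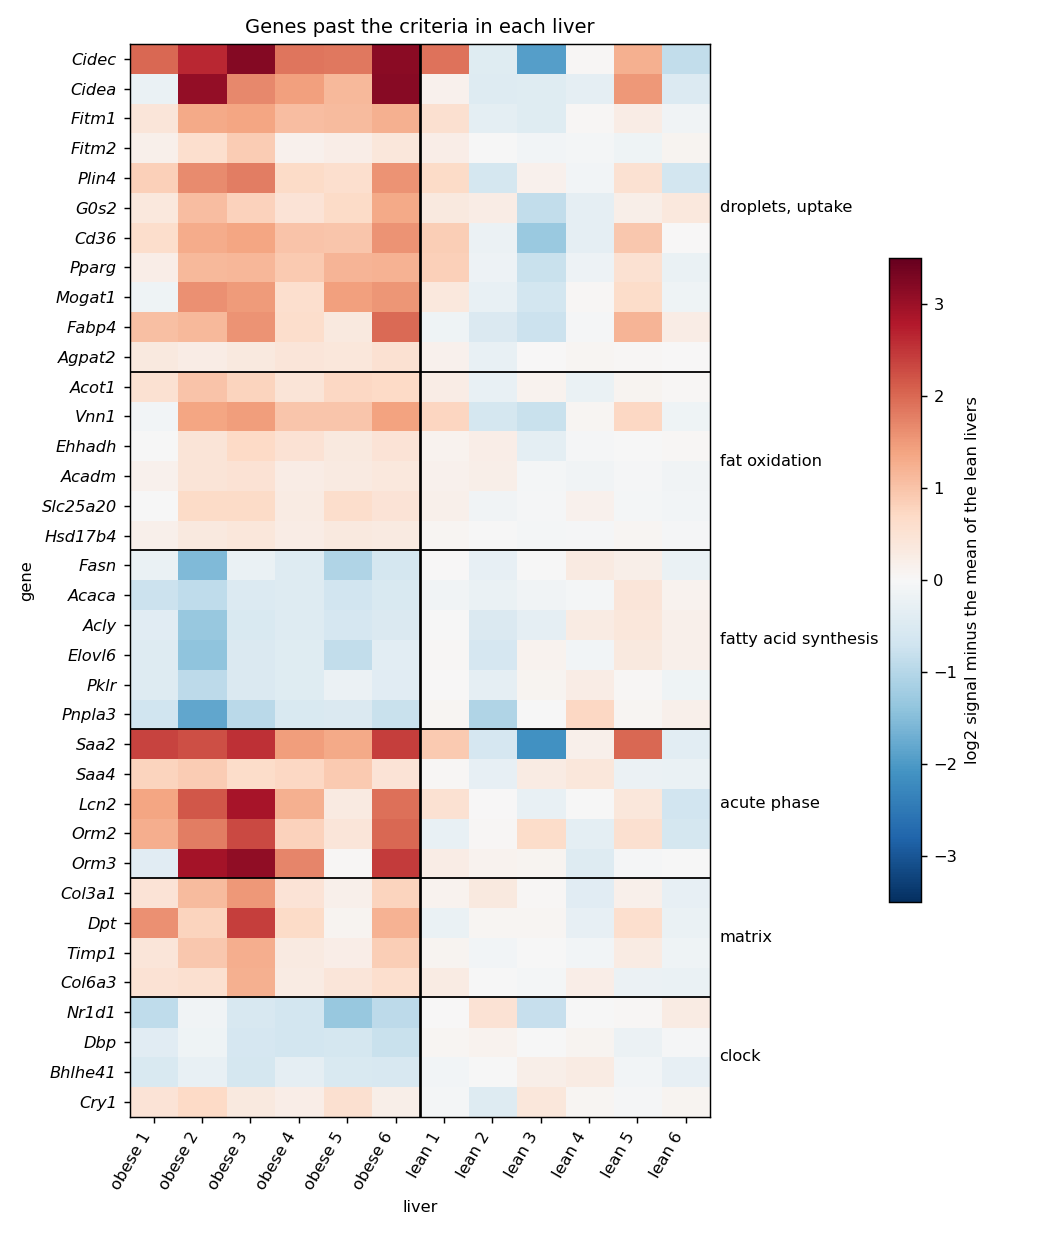
Log2 signal minus the mean of the 6 lean livers (colour, scale on the right) for 36 genes past the criteria in 6 lists (rows) and for each liver (columns, obese on the left, lean on the right). Obese replicates 2, 3 and 6 are the highest of the obese livers for *Cidec*, *Orm3* and *Col3a1*, and lean replicates 1 and 5 are warmer than the other lean livers for *Cidec*, *Cd36* and *Saa2*.

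The same 3 obese livers were often the highest. Obese replicates 2, 3 and 6 were the 3 highest obese livers in 65 of the 322 genes that rose (20.2%), against 968 of all 14695 genes with an average above 8 (6.59%). In the genes that fell, they were the 3 lowest in 14 of 200 (7.00%), against 641 of 14695 (4.36%). Replicates 4, 5 and 6 were the lowest trio in more of the fallen genes, 16 of 200. Over all 14695 genes the commonest highest trio was replicates 1, 2 and 3 (1348 genes). The commonest lowest trio was replicates 4, 5 and 6 (1338 genes). The labels give no body weight, liver fat or other measure of the single mice, so what any of these livers share was not tested. The trio of replicates 2, 3 and 6 was picked after its values were seen.

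Glucose and insulin genes changed at a few steps. Of 22 measured members of gluconeogenesis and insulin signalling, 1 rose and 3 fell, with a median of -0.12. *Lepr* was one of these. *Irs1*, an insulin receptor substrate, had signals of 38.7 to 49.8 in obese livers, against 49.9 to 75.2 in lean livers, a ratio of 0.720 on 1 of its 2 probe sets (log2 difference -0.46, SE 0.111, limma *P*=0.00109 and *P*=0.00216 by exact permutation). *Gys2*, the glycogen synthase of liver, averaged 636 ± 40.3 in obese and 791 ± 72.2 in lean livers with no overlap (log2 difference -0.31, SE 0.0828, limma *P*=0.00225 and *P*=0.00216 by exact permutation). *Ppp1r3b*, which brings a phosphatase to glycogen and activates glycogen synthase, rose to 455 ± 70.0 in obese, against 282 ± 113 in lean livers (log2 difference 0.77, SE 0.223, limma *P*=0.00420 and *P*=0.0173 by exact permutation), and did not pass without obese replicate 1 or lean replicate 1 or 6 (limma *P* at most 0.0111). The other, dimmer probe set of *Ppp1r3b* passed in all 12 such fits, with no overlap (ratio 1.97, log2 difference 1.07, SE 0.215, limma *P*=0.000235 and *P*=0.00216 by exact permutation).

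Of 25 measured genes of bile acid synthesis and transport 1 rose and 1 fell, with a median of -0.10, and at an unadjusted limma *P* under 0.05 3 were higher and 4 lower. *Cyp39a1*, which is given above, is not in this list. *Klb*, the coreceptor for FGF15 and FGF21, had 86.2 to 99.3 in obese livers, against 111 to 178 in lean livers, with no overlap (ratio 0.705, log2 difference -0.49, SE 0.114, limma *P*=0.000854 and *P*=0.00216 by exact permutation). *Abcc3*, an export pump of the basolateral membrane, averaged 516 ± 137 in obese and 336 ± 91.7 in lean livers, and did not pass without obese replicate 2, 3 or 4 or lean replicate 2, 3, 4, 5 or 6 (limma *P* at most 0.0207). The canalicular pump *Abcc2* separated the groups at a ratio of 0.857, which is inside the limit. In amino acid catabolism and the urea cycle 2 of 33 measured genes rose and 2 fell (median 0.057): the transaminase *Gpt2* had a ratio of 1.24 (exact permutation *P*=0.00216) and *Got1* one of 0.722 (exact permutation *P*=0.00866), both kept in every fit that left out 1 liver. *Bckdhb*, a subunit of the branched-chain ketoacid dehydrogenase (ratio 1.21), did not pass without obese replicate 2, 3, 4 or 6 or lean replicate 2, 3 or 4 (limma *P* at most 0.0140), and asparagine synthetase, *Asns* (0.740), did not pass without obese replicate 2, 3, 5 or 6 or lean replicate 1, 2, 3, 4 or 6 (at most 0.0205).

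Drug-metabolising enzymes rose in a few members. The list of P450 families 1 to 3 and their receptors holds 39 measured genes and not every member of these families; 3 of its genes rose and 0 fell, with a median of 0.10. *Cyp2j9*, a family member outside the list, fell, as given above. *Cyp2a22* averaged 103 ± 67.8 in obese and 33.5 ± 13.3 in lean livers (ratio 3.08, exact permutation *P*=0.0173), *Cyp2a12* had a ratio of 1.25 (exact permutation *P*=0.00433), and *Nr1i3*, the nuclear receptor CAR that induces P450 genes, averaged 1092 ± 140 and 814 ± 111 (log2 difference 0.43, SE 0.112, limma *P*=0.00215 and *P*=0.0108 by exact permutation). The *Cyp2a* genes are alike in sequence, so their probes may read each other. The widest difference in the list was that of *Cyp2b9*, a P450 with higher levels in female than in male mouse liver. Its signals were 21.96, 2921, 2241, 1625, 176 and 1727 in obese livers, against 68.2, 188, 16.1, 49.5, 442 and 129 in lean livers. Obese replicates 2, 3, 4 and 6 stood above every lean liver and obese replicates 1 and 5 did not, so that a ratio of 9.76 came with a limma *P* of 0.0297 (log2 difference 2.82, SE 1.16) and the gene did not pass. In its near copy *Cyp2b13* the same 4 obese livers stood above every lean liver, with signals of 10.5 to 123 against a lean maximum of 7.80, and the gene did not pass either (exact permutation *P*=0.0346).

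Male-biased genes and the growth hormone axis were read beside *Cyp2b9*. Of 28 measured members 1 rose and 1 fell, *Spink1* and *Igfbp2*, with a median of -0.076. *Hsd3b5*, a steroid dehydrogenase of male liver, had signals of 74.3, 8.33, 4.25, 139, 236 and 18.7 in obese livers, against 70.3, 72.2, 223, 134, 76.3 and 100.5 in lean livers. Obese replicates 2, 3 and 6 were thus the lowest, below every lean liver, and obese replicates 1, 4 and 5 lay in or above the lean range (log2 difference -1.58, SE 0.861, limma *P*=0.0885 and *P*=0.162 by exact permutation). The growth hormone receptor *Ghr* and its mediator *Stat5b* differed by -0.033 (exact permutation *P*=0.751) and -0.053 (exact permutation *P*=0.433), and *Igf1* by 0.026 (exact permutation *P*=0.857). The epidermal growth factor receptor *Egfr* lay at 641 ± 292 in obese and 928 ± 273 in lean livers and did not pass (exact permutation *P*=0.0996).

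Among conjugation enzymes 4 of 36 measured genes rose and 2 fell, with a median of 0.068. *Gstk1*, a mitochondrial and peroxisomal glutathione transferase, had 784 to 1011 in obese livers, against 577 to 775 in lean livers with no overlap (log2 difference 0.48, SE 0.0925, limma *P*=0.000155 and *P*=0.00216 by exact permutation). The methyltransferases *Tpmt*, which acts on thiopurines, and *Nnmt*, which acts on nicotinamide, had ratios of 1.58 (exact permutation *P*=0.00433) and 1.70 (exact permutation *P*=0.013). *Sult1b1*, a sulfotransferase with a ratio of 1.49, did not pass without obese replicate 2, 4 or 6 or lean replicate 2 or 4 (limma *P* at most 0.0158). *Gstp1*, a cytosolic glutathione transferase, fell to 4051 ± 808 in obese, against 5835 ± 1227 in lean livers, and did not pass without obese replicate 2, 4, 5 or 6 or lean replicate 2, 3 or 4 (limma *P* at most 0.0157). *Ugt2b35* had a ratio of 0.785 and did not pass without obese replicate 1, 2 or 3 or lean replicate 2, 3, 4, 5 or 6 (limma *P* at most 0.0208). In the list of oxidative stress genes, *Aldh1a1* alone rose among 22 measured, with 3964 ± 568 in obese and 3009 ± 230 in lean livers (exact permutation *P*=0.00866, list median 0.097).

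Acute phase proteins are made by hepatocytes under interleukin 6, interleukin 1 and the CCAAT/enhancer-binding proteins (C/EBP), which bind a motif of the form TTGCNNAA. Of 29 measured genes 7 rose and 0 fell in obese livers, with a median of 0.14. A RefSeq promoter (build GRCm38.p6) was at hand for 6 of the 7. TTGCNNAA was searched on both strands in the 250 bases before the transcription start. It was found in all 6 and in 6 of the 19 acute phase genes with a promoter that did not pass. Over all 27025 genes with a promoter the share was 10.8%, and over all 32851 promoters of that length 9.56%. An NF-kappa-B motif, in the form given below for *Cxcl1*, and a motif of the STAT factors were searched in the same promoters. Each was found in 1 of the 6, *Steap4*. Among the 19 that did not pass, the NF-kappa-B motif was found in 2 and the STAT motif in 1. A match is a description of letters and not evidence of binding. The promoters are printed 5′ to 3′ in the direction of the gene, with the matches to TTGCNNAA in capitals. They belong to the genes of the list past the criteria with a promoter at hand. Those of *Orm2* and *Orm3* can be seen to be much alike. These bases lie before the transcript, and whether the probes of *Orm2* and *Orm3* read each other was not tested.
*Saa2*, chr7:46751583-46751832, plus strand: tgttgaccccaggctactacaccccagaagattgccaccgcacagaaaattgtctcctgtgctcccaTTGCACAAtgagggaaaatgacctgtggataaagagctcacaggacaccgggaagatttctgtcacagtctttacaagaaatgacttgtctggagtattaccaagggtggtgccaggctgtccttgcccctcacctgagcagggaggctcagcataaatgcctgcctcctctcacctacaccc
*Saa4*, chr7:46732604-46732853, minus strand: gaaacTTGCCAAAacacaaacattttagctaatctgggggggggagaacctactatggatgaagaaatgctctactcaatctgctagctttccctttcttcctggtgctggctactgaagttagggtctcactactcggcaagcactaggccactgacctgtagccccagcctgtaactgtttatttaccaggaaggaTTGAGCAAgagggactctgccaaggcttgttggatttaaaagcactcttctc
*Lcn2*, chr2:32387740-32387989, minus strand: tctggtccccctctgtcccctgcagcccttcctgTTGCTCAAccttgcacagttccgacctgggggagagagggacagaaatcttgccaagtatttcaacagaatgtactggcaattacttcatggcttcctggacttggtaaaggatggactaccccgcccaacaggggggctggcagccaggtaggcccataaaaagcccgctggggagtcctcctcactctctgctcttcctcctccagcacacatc
*Orm2*, chr4:63362199-63362448, plus strand: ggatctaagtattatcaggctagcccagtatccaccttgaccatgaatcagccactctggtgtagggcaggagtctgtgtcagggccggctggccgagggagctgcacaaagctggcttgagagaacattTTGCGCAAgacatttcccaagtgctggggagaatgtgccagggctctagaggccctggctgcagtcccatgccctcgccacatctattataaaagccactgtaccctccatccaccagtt
*Orm3*, chr4:63355908-63356157, plus strand: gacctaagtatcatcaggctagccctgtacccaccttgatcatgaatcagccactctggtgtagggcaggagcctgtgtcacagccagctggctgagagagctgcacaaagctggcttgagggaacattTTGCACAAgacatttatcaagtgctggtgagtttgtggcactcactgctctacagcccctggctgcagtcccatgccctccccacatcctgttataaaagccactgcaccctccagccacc
*Steap4*, chr5:7960222-7960471, plus strand: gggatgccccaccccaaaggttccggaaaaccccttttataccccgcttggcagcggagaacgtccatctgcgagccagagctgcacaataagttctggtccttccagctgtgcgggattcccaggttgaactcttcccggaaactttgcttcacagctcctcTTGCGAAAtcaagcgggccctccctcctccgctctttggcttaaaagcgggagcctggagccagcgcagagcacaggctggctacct

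*Saa2*, a serum amyloid A carried on high-density lipoprotein, had signals of 814, 754, 925, 436, 391 and 841 in obese livers, against 295.5, 104, 36.002, 178, 631 and 121 in lean livers. Lean replicate 5 reached into the obese range, and the ratio was 3.05 (log2 difference 2.07, SE 0.538, limma *P*=0.00197 and *P*=0.00866 by exact permutation). *Saa4*, the constitutive member, averaged 1158 ± 128 in obese and 703 ± 141 in lean livers with no overlap (log2 difference 0.74, SE 0.131, limma *P*=7.6e-05 and *P*=0.00216 by exact permutation, adjusted *P*=0.0927). *Lcn2*, lipocalin 2, which binds bacterial siderophores, ranged from 52.7 to 318 (median 137) in obese livers, against 26.9 to 61.6 (median 42.7) in lean livers. Of the obese livers, replicate 5 alone was inside the lean range (ratio 3.52, log2 difference 1.65, SE 0.357, limma *P*=0.000457 and *P*=0.00649 by exact permutation). *Orm2*, an orosomucoid that carries drugs in plasma, averaged 154 ± 72.1 and 54.5 ± 19.5 (log2 difference 1.43, SE 0.321, limma *P*=0.000623 and *P*=0.00649 by exact permutation). *Orm3* had signals of 8.07, 80.5, 92.0, 34.7, 10.99 and 57.8 in obese livers, against 12.8, 11.6, 11.3, 7.78, 10.4 and 10.5 in lean livers. Obese replicates 1 and 5 lay inside the lean range, and *Orm3* passed without obese replicate 1 or 5 and in none of the other such fits (limma *P* at most 0.0239). *Steap4*, a metalloreductase, had 354 to 432 in obese livers, against 286 to 322 in lean livers, a ratio of 1.23, and did not pass without obese replicate 5, by its ratio. The factor *Cebpd* itself had a ratio of 1.38 and did not pass without obese replicate 3, 4, 5 or 6 or lean replicate 2, 4 or 6 (limma *P* at most 0.0190). *Saa3* (log2 difference 0.70, exact permutation *P*=0.0606) and haptoglobin, *Hp* (0.33, exact permutation *P*=0.0108), did not pass, and *Serpina3n* separated the groups at a ratio of 1.18. *Saa1* had no probe set with its symbol alone and was not analysed, and the *Saa2* probe set may read *Saa1* too.

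Chemokines and cytokines changed in 2 of 40 measured genes, both higher, with a median of 0.11. This share of 5% compares with 3.55% of all genes with an average above 8. *Cxcl1*, which draws neutrophils, had signals of 30.6, 26.3, 37.6, 21.5, 21.2 and 24.7 in obese livers, against 13.8, 11.66, 12.6, 20.1, 15.2 and 17.5 in lean livers. The groups did not overlap (ratio 1.78, log2 difference 0.83, SE 0.165, limma *P*=0.000226 and *P*=0.00216 by exact permutation). Its promoter is shown because it holds 2 matches to a form of the NF-kappa-B motif, GGG, any 2 bases and then TTTCC. Both strands were searched. The motif was present in 5 of the 29 other chemokine and cytokine genes with a promoter (*Ccl9*, *Cxcl2*, *Il6*, *Ltb* and *Csf1*). Over all 27025 genes with a promoter the share was 1.65%, and over the 32851 promoters 1.41%. The capitals mark both matches, which start 89 and 71 bases before the transcription start.
*Cxcl1*, chr5:90890995-90891244, plus strand: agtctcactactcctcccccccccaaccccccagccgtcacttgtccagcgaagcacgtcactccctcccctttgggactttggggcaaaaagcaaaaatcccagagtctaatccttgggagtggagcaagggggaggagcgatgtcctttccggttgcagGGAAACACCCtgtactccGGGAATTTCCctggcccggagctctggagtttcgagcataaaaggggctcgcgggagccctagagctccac

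The T-cell chemokine *Ccl5* had a ratio of 1.65 and was the other member that rose. *Ccl2*, which draws monocytes, ranged from 27.7 to 87.4 in obese livers, against 20.6 to 33.4 in lean livers, and did not pass (log2 difference 0.74, SE 0.269, limma *P*=0.0166 and *P*=0.0195 by exact permutation). *Il1b* differed by 0.40 (SE 0.198, limma *P*=0.0619 and *P*=0.102 by exact permutation). Its signals were 14.04 to 19.52 in obese livers, inside the lean range of 8.317 to 20.22. Although 6 of 6 obese livers lay above the lean mean, lean replicate 6 lay above every obese liver. *Tnf* differed by 0.10 (SE 0.178, limma *P*=0.595 and *P*=0.638 by exact permutation). The interleukin 2 receptor chain *Il2rb* averaged 9.98 ± 1.49 in obese and 7.68 ± 1.28 in lean livers (exact permutation *P*=0.026). Of 35 measured interferon-stimulated genes and of 15 genes of MHC class II none passed the criteria. In limma 3 of the 35 (2 higher, 1 lower) and 1 of the 15 had an unadjusted *P* under 0.05. Their medians were 0.10 and 0.21, and 14 of the 15 MHC class II genes lay higher. As 3.55% of all genes with an average above 8 passed, 0 of 35 or of 15 does not set these lists apart.

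**Figure D4:**
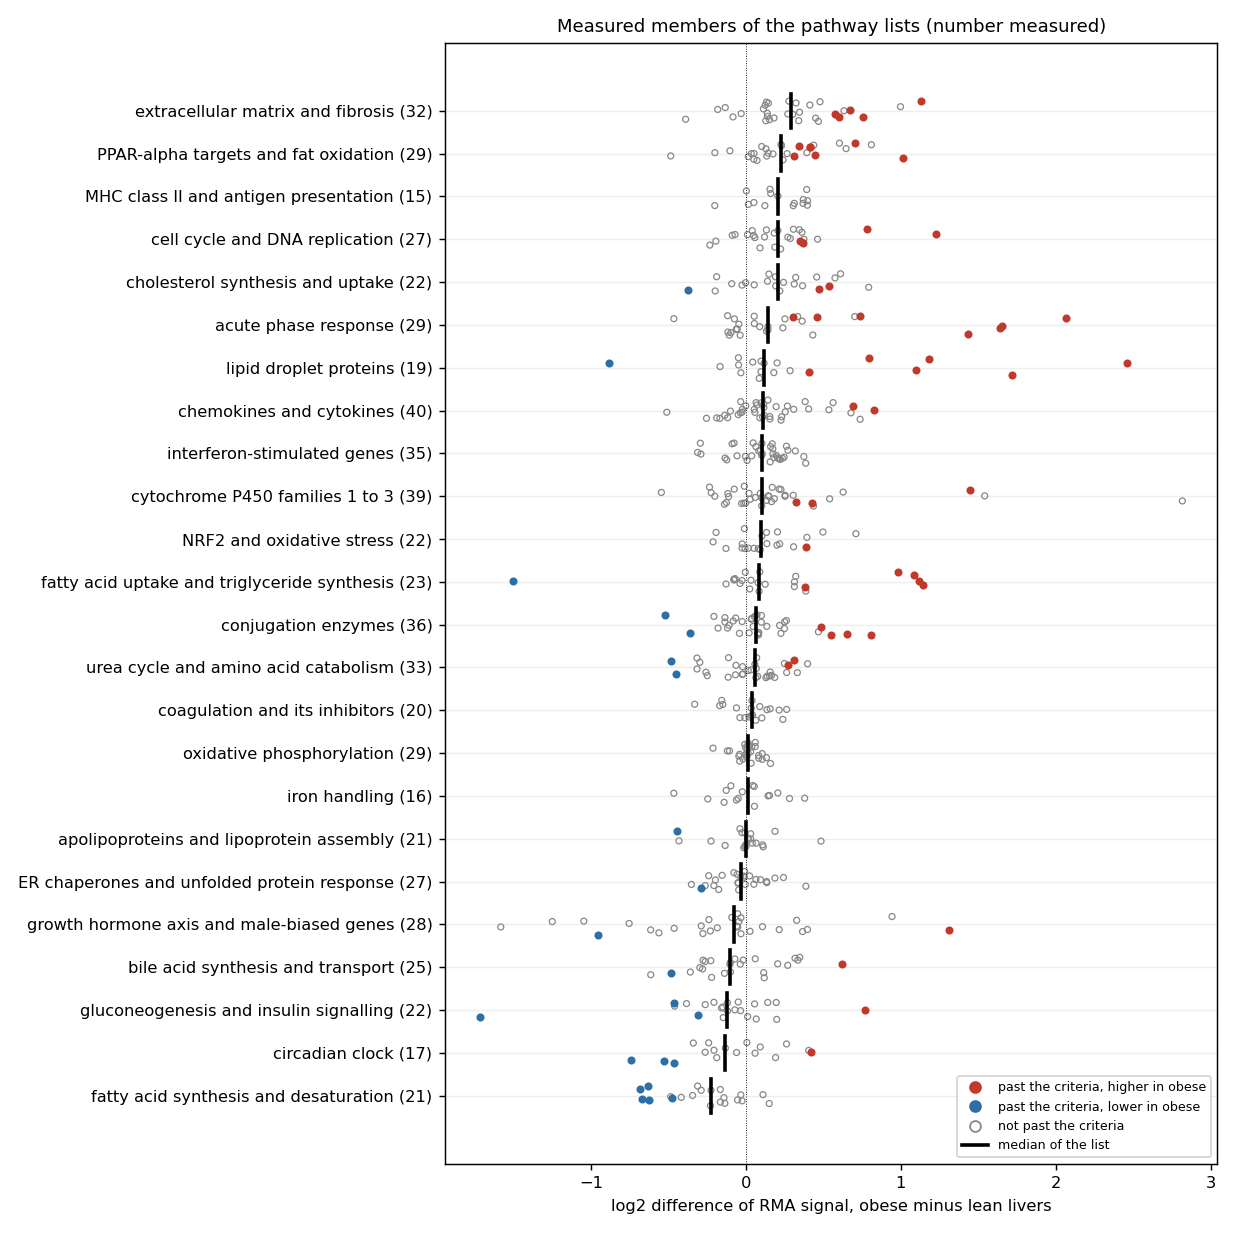
Log2 difference of obese minus lean livers (horizontal axis) for the measured members of 24 pathway lists (rows, number measured in parentheses), ordered by the median, which is the black bar. Red points are past the criteria and higher, blue points past them and lower, open circles not past them; the matrix list has the highest median (0.29) and fatty acid synthesis the lowest (-0.23).

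Extracellular matrix had the highest median of the pathway lists, 0.29, with 5 of 32 measured genes risen and 0 fallen. *Col3a1*, a fibrillar collagen, had signals of 46.0, 71.5, 96.0, 46.6, 38.0 and 57.0 in obese livers, against 36.4, 41.8, 34.2, 25.3, 37.5 and 27.6 in lean livers. One obese liver, replicate 5, overlapped the lean range (ratio 1.75, log2 difference 0.76, SE 0.209, limma *P*=0.00297 and *P*=0.00433 by exact permutation). *Dpt*, dermatopontin, which organises collagen fibrils, averaged 105 ± 64.6 in obese and 42.6 ± 10.9 in lean livers (log2 difference 1.13, SE 0.319, limma *P*=0.00348 and *P*=0.00433 by exact permutation). *Timp1*, an inhibitor of matrix proteases, averaged 9.66 ± 2.84 and 5.90 ± 0.709 near the limit of 8 (log2 difference 0.67, SE 0.169, limma *P*=0.00156 and *P*=0.00433 by exact permutation), and *Col6a3* 19.0 ± 5.05 and 12.3 ± 1.87 (log2 difference 0.60, SE 0.153, limma *P*=0.00168 and *P*=0.00433 by exact permutation). *Col14a1* had a ratio of 1.52 and did not pass without obese replicate 6 or lean replicate 3 (limma *P* at most 0.0108). The main collagen genes *Col1a2* (log2 difference 0.997, SE 0.348, limma *P*=0.0131 and *P*=0.0216 by exact permutation) and *Col1a1* (0.30, SE 0.162, limma *P*=0.0843 and *P*=0.0887 by exact permutation) and the matrix protein *Sparc* (0.60, SE 0.205, limma *P*=0.0113 and *P*=0.0152 by exact permutation) did not pass. The other probe set of *Col1a2* differed by 0.37 and did not pass either. Markers of the stellate cells that lay down matrix were read beside them: *Colec11* rose among 14 measured (ratio 1.34), 0 fell and the median was 0.094. *Colec11* did not pass without obese replicate 1, 3, 5 or 6 or lean replicate 1, 2, 4 or 6 (limma *P* at most 0.0239). The activation marker *Acta2* differed by 0.045 (exact permutation *P*=0.859) and the receptor *Pdgfrb* by -0.0022 (exact permutation *P*=0.991).

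Macrophage genes lay higher without passing. Of 20 general macrophage genes 0 passed, against 3.55% of all genes with an average above 8, which leaves few passes to be found in 20. An unadjusted limma *P* under 0.05 was found in 3, all higher. Of the 20 log2 differences 19 were above 0 and the median was 0.24. *Cd14*, the lipopolysaccharide coreceptor, ranged from 6.92 to 27.9 in obese livers, against 6.21 to 8.85 in lean livers (log2 difference 0.75, SE 0.251, limma *P*=0.0103 and *P*=0.013 by exact permutation), and *Cybb*, a subunit of the phagocyte oxidase, differed by 0.51 (SE 0.173, limma *P*=0.0111 and *P*=0.0195 by exact permutation). The macrophage markers *Adgre1* (0.28, exact permutation *P*=0.253) and *Cd68* (0.29, exact permutation *P*=0.26) did not pass. Resident Kupffer cell genes had a median of 0.039 over 12 measured, with 0 past the criteria and 0 at an unadjusted limma *P* under 0.05, and *Clec4f*, their lectin, averaged 91.6 ± 15.6 in obese and 98.0 ± 22.9 in lean livers. Genes of lipid-associated and monocyte-derived macrophages had a median of 0.28 over 19 measured, with 1 risen and 2 fallen. *Atp6v0d2*, a subunit of the lysosomal proton pump, had 9.66 to 17.7 in obese livers, against 5.86 to 8.62 in lean livers (ratio 1.83, log2 difference 0.85, SE 0.156, limma *P*=0.000105 and *P*=0.00216 by exact permutation). The fallen members were *Fabp5* and the tetraspanin *Cd9*, at 76.2 ± 17.3 in obese and 108 ± 19.8 in lean livers on 1 of its 2 probe sets, which did not pass without obese replicate 1, 4 or 5 or lean replicate 5 or 6 (limma *P* at most 0.0137). *Trem2*, the lipid receptor that defines such cells, differed by 0.44 (SE 0.171, limma *P*=0.0222 and *P*=0.0281 by exact permutation).

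**Figure D5:**
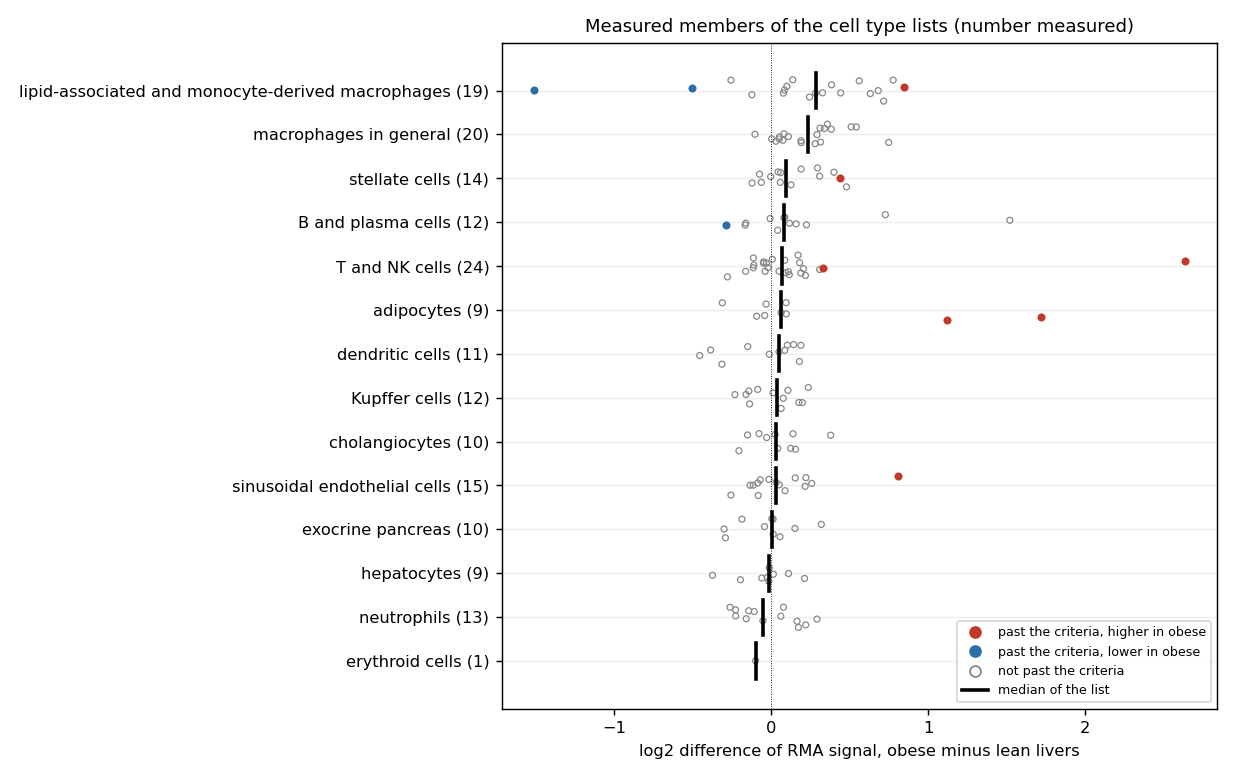
Log2 difference of obese minus lean livers (horizontal axis) for the measured members of 14 cell type lists (rows, number measured in parentheses), ordered by the median, which is the black bar; colours as for the pathway lists. Most lists centre near 0, both macrophage lists that are not of Kupffer cells lie highest (0.28 and 0.24), and the rises of *Themis*, *Cidea* and *Fabp4* stand apart from the rest of their lists.

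Few genes of the other cell type lists passed. Hepatocyte genes had a median of -0.014 over 9 measured, with 0 past the criteria and 2 at an unadjusted limma *P* under 0.05, both lower: *Hnf4a*, the master regulator of hepatocytes, with 210 ± 34.3 in obese and 271 ± 39.5 in lean livers (exact permutation *P*=0.013), and *Cebpa* (log2 difference -0.19, exact permutation *P*=0.0216). Albumin, *Alb*, averaged 6161 ± 284 in obese and 6264 ± 282 in lean livers. In sinusoidal endothelium the hyaluronan receptor *Lyve1* was the 1 of 15 that rose, with 106 ± 33.4 in obese and 61.1 ± 24.3 in lean livers, and did not pass without obese replicate 1, 3 or 6 or lean replicate 2, 3, 4 or 6 (limma *P* at most 0.0149). Among B and plasma cell genes, the heavy chain *Ighm* spread widely, from 170 to 1183 in obese livers, against 58.5 to 561 in lean livers, and did not pass (log2 difference 1.52, SE 0.567, limma *P*=0.0186 and *P*=0.0454 by exact permutation). That is the brightest of 7 probe sets of *Ighm*, whose log2 differences ran from -0.20 to 1.52, with 0 past the criteria. *Xbp1*, the secretory cell regulator that also stands among the unfolded protein response genes, fell to 233 ± 12.0 in obese, against 285 ± 27.0 in lean livers with no overlap (log2 difference -0.29, SE 0.0818, limma *P*=0.00370 and *P*=0.00216 by exact permutation), and did not pass without lean replicate 4 by its ratio. Neutrophil, dendritic, cholangiocyte and exocrine pancreas genes had medians between -0.052 and 0.051, with 0 past the criteria and 1, 1, 0 and 3 at an unadjusted limma *P* under 0.05.

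Clock genes are rhythmic over the day, so their level depends on the hour of sampling, which the labels do not give. Of 17 measured, 1 rose and 3 fell, with a median of -0.13. *Dbp*, an output factor of the clock, had signals of 75.6, 89.2, 66.4, 63.8, 64.8 and 58.2 in obese livers, against 104, 107, 98.0, 106, 85.9 and 96.5 in lean livers. One obese liver, replicate 2, overlapped lean replicate 5 (ratio 0.699, log2 difference -0.53, SE 0.107, limma *P*=0.000272 and *P*=0.00433 by exact permutation). The repressors *Nr1d1* (REV-ERB alpha) and *Bhlhe41* had ratios of 0.597 and 0.720, and the repressor *Cry1* rose to 62.7 ± 8.48 in obese, against 47.3 ± 8.91 in lean livers. *Nr1d1* did not pass without obese replicate 1, 5 or 6 or lean replicate 1, 2, 5 or 6 (limma *P* at most 0.0140), and *Cry1* passed without obese replicate 4 or 6 or lean replicate 3 and in none of the other such fits (at most 0.0204). *Per1* (log2 difference -0.34, exact permutation *P*=0.0628) and *Nr1d2* (-0.24, exact permutation *P*=0.013) did not pass. The E-box CACGTG, which CLOCK and BMAL1 bind, was searched in the same 250 bases. It stood in the promoter of 2 of the 4 changed genes (*Cry1* and *Bhlhe41*) and of 3 of the 12 others with a promoter. Over all 27025 genes with a promoter the share was 6.86%, and over all promoters 6.02%.

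Cell cycle and DNA replication genes lay higher, with 4 of 27 measured risen, 0 fallen, 23 log2 differences above 0 and a median of 0.21. *Cdkn1a*, given above, is the member of this list that blocks the cycle. *Mcm6*, a subunit of the replicative helicase, averaged 39.9 ± 6.47 in obese and 23.5 ± 5.15 in lean livers (log2 difference 0.78, SE 0.158, limma *P*=0.000265 and *P*=0.00433 by exact permutation). *Mcm2*, of the same helicase, had a ratio of 1.28 and did not pass without lean replicate 4 (limma *P* of 0.0101), and *Top2a*, the topoisomerase of dividing cells, averaged 9.42 ± 1.01 and 7.41 ± 0.719, close to the limit of 8. The proliferation marker *Mki67* differed by 0.29 (SE 0.157, limma *P*=0.0907 and *P*=0.119 by exact permutation) and did not pass.

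Several functions of the liver showed no member past the criteria. Of 29 measured genes of oxidative phosphorylation, 20 of coagulation and 16 of iron handling, 0 passed, and 1 of each list had an unadjusted limma *P* under 0.05. Their medians were 0.013, 0.036 and 0.0097. Of all genes with an average above 8, 3.55% passed, so 0 in lists this short does not set these functions apart. Apolipoproteins and lipoprotein assembly had a median of -0.00033 over 21 measured, with *Tm6sf2* as the member that fell, and the unfolded protein response one of -0.034 over 27, with *Xbp1*.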

How the data were processed

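RNA of 12 livers, 6 obese and 6 lean, was measured with 1 Affymetrix Mouse Gene 2.0 ST array each. The authors deposited log2 signals per probe set, made by RMA (median polish with sketch-quantile normalisation) in Affymetrix Expression Console 1.4.1.46, per their methods and processing notes. RMA forces the arrays to a similar distribution, so a shift of all genes in 1 direction would be removed. Genes were named from the platform annotation, and 23328 of 23521 single-symbol probe sets had an Entrez ID matching RefSeq. The build behind the probe annotation was not stated. Groups came from sample titles and diet labels. Whether each sample is 1 mouse or a pool is not stated in the labels, and each was treated as 1 mouse.

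From the deposited log2 values, obese livers were compared with lean livers in limma 3.58.1 (lmFit and eBayes, R 4.3.3) over all 41345 probe sets, with Benjamini-Hochberg adjustment, without a replicate block. The criteria were those of the study: limma *P* under 0.01, linear group averages that differ by more than 1.2-fold, and 1 or both of them above 8. The difference of single genes was also tested by exact permutation, two-sided, over the 924 ways to divide 12 livers. The fit was tested on simulated data. Tables and figures were made with Python 3.11.15, NumPy 2.4.6, pandas 2.3.3 and Matplotlib 3.10.9.

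Named genes were the 15 with the largest ratio in each direction among those past the criteria, leaving out locus numbers and small RNAs; in each list the members past the criteria, up to 8, and up to 6 others that the list is incomplete without; the liver genes that the study measured by qPCR or names; and the genes past the FDR. Members, lists and tests were chosen with earlier results of these data known. Genes with no probe set of their own symbol were not analysed here. Alternatives were another variance model, array weights, centred arrays, other limits on average, ratio, *P* and FDR, 1 probe set per gene, the replicate number as a block and each liver left out. Promoter sequences came from RefSeq (GRCm38.p6), with one for 612 of the 785 measured list genes.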

Additional observations from a re-analysis of the deposited data

Results flagged for a closer look

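In 19 of 308 groups of 6 livers tested, 1 liver lay far from the other 5 (Dixon's test); chance flags about 1 in 20 groups. Values are linear signals.

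Obese replicate 1 was far below the other obese livers in 6 genes. It had 12.1 for *Acpp* (others 24.5 to 33.0), 212 for *Fitm1* (others 333 to 410), 111 for *Pparg* (others 179 to 218) and 146 for the PPAR-alpha target *Vnn1* (others 304 to 434). It also had 905 for the omega-hydroxylase *Cyp4a14* (others 1480 to 1910) and 2910 for *Aldh1a1* (others 3930 to 4630). Obese replicate 2 was low for *Pnpla3*, at 13.7 (others 25.5 to 34.2), and for *Acly*, at 270 (others 449 to 519), and high for *Abat*, at 761 (others 625 to 661), and for *Aspg*, at 152 (others 103 to 118). Obese replicate 5 had 34.1 for *Gpc1* (others 41.6 to 45) and 432 for *Steap4* (others 354 to 376), and obese replicate 3 had 29.0 for *Col6a3* (others 14.8 to 18.2).

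Among lean livers, replicate 5 was high for *Cidea*, at 30.5 (others 7.55 to 11.8), for *Col1a2*, at 59.5 (others 30.1 to 34.2), and for *Lyve1*, at 110 (others 44.7 to 61.1). Lean replicate 2 had 213 for *Agpat2* (others 254 to 281), lean replicate 3 had 31.6 for *Srebf2* (others 51.3 to 60.1), and lean replicate 4 had 17.3 for *Tnf* (others 7.60 to 10).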

How the results depend on the processing

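The count of 833 probe sets past the criteria (470 higher and 363 lower in obese livers) became 306 (182 and 124) with a ratio above 1.5, and 2222 (1182 and 1040) with *P* under 0.05. It stayed within 1.5 times of 833 under the other alternatives, at 699 to 888 with each liver left out. Of the 833 probe sets themselves, 412 passed whichever liver was left out. The FDR count was less stable. Against 37 (22 higher and 15 lower), it was 58 (36 higher) with an intensity trend and robust prior, 21 (13 and 8) with arrays centred on a common median, 117 (78 and 39) with 1 probe set per gene, 87 (53 and 34) when adjusted over probe sets with an average above 8, 146 (91 and 55) over those above 16, and 8 (7 and 1) at an FDR of 5%. The last 4 change the probe sets adjusted over or the limit itself, and with 1 probe set per gene the fit was also made anew. The cause of the differing counts was not tested. With each liver left out it was 6 to 68 (5 to 43 higher, 1 to 26 lower).

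Replicate numbers occur in both groups, but the labels do not say that they pair the mice. Deviations of same-numbered livers correlated at -0.051 to 0.073, against -0.11 to 0.11 for livers of different numbers. Of the obese livers, 1 of 6 correlated best with its own number. No pairing showed over all genes together. A correlation over all genes cannot exclude a link that affects few of them, so whether the numbers pair the mice was not settled. With the replicate number as a block, 4 probe sets (3 higher and 1 lower) passed the FDR, 3 of them among the 37, and 759 passed the criteria, 545 of them among the 833. Of the 112 genes named and past the criteria, 30 did not pass with the block, 4 with array weights, 3 with the intensity trend, 2 with centred arrays, 1 with the mean of its probe sets and 37 without some liver. Of all genes named, *Clec4f* alone changed sign, which had not passed: its log2 difference ran from -0.1637 to 0.02633 over the fits that left out 1 liver, positive without lean replicate 2. Precision is limited by 6 arrays per group and, for genes near an average of 8, by signal close to background.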

Other observations

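Of the 833 probe sets past the criteria, 243 carry no gene symbol and 37 carry several, so their changes cannot be assigned to a gene here. *Selenbp2*, a selenium-binding protein of liver, had signals of 203 to 975 in obese livers (median 386), against 129 to 315 in lean livers (median 255), and did not pass (log2 difference 0.94, SE 0.375, limma *P*=0.0256 and *P*=0.052 by exact permutation). *Cps1*, the entry enzyme of the urea cycle, had 2369 to 3055 in obese livers, against 2813 to 3633 in lean livers, and did not pass either (log2 difference -0.26, SE 0.0945, limma *P*=0.0167 and *P*=0.0152 by exact permutation). *Srebf1*, which drives fatty acid synthesis, differed by -0.34 (SE 0.216, limma *P*=0.133 and *P*=0.186 by exact permutation) and *Scd1*, which desaturates stearate, by -0.14 (SE 0.0722, limma *P*=0.0699 and *P*=0.013 by exact permutation).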
